A study of Mus musculus with 10 samples.

Results

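The collagen, laminin and integrin genes were taken from the deposited count table as every row whose mouse symbol begins with Col, a number, a and a number (the collagen chains), with Lama, Lamb or Lamc and a number (the laminin chains), or with Itga or Itgb and a number or the letter l, m, v or x (the integrin chains). The rule found 56 genes among the 14300 of the table. Of these, 51 encode chains of the 3 families (28 collagen, 8 laminin and 15 integrin chains), and 5 are genes whose symbols match without encoding a chain (*Col4a3bp*, *Itgb1bp1*, *Itgb1bp2*, *Itgb3bp* and *Itgbl1*). The mouse annotation lists 85 symbols that match, and 29 of them, among them *Col1a1*, *Col3a1*, the *Col6a1* to *Col6a3* group, *Itga7* and *Itgb3*, were not analysed here.

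Cells came from C57BL/6J embryos that carried *Grem1creERT*, a tamoxifen-activated Cre recombinase under the control of *Grem1* regulatory sequence, together with *Rosa26LSLTdtomato*, a red reporter that Cre switches on. The dams received tamoxifen and the embryos were collected 24 h later. Live cells were separated by flow cytometry into a TdTomato+ and a TdTomato− population, with 5 libraries of each, and each of the mouse numbers 2 to 6 has 1 library of either kind. The sample descriptions name the brain as the source, whereas the methods of the study name the dorsal telencephalon with its meninges removed. Both populations come from the same tamoxifen-treated reporter embryos, so neither is an untreated control, and TdTomato marks cells in which *Grem1* sequence was active at labelling together with their progeny. TdTomato− cells are all remaining live cells of the dissection.

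Collagens are trimers of alpha chains that form fibres or sheet-like networks outside cells, and type IV collagen is the network of basement membranes. Laminins are trimers of 1 alpha, 1 beta and 1 gamma chain, and they form the other network of the basement membrane. Integrins are receptors of 1 alpha and 1 beta chain that bind these proteins and link them to the cytoskeleton. In the embryonic cortex the basement membrane below the meninges anchors the endfeet of radial glia, the progenitors whose fibres guide migrating neurons.

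Levels are given as CPM, the read count of a gene scaled to library size with TMM factors, and, where genes are compared with each other, as RPKM, which divides the CPM by the exon length of the gene in kilobases. A gene is called changed when the adjusted p of edgeR's quasi-likelihood test, with the mouse as a block, was 0.05 or less, and past both thresholds when its log2 fold change was also at least 2 in size. Total counts were 23429034 to 27286180 per library. A count of 3 or less, equal to 0.104 to 0.136 CPM, was taken as the floor, and this limit covers counting error only. *Grem1* itself was at 60.7 to 68.4 CPM in TdTomato+ and 5.004 to 7.004 CPM in TdTomato− libraries. Of 8 markers of excitatory neurons, 7 were higher in TdTomato+ cells and 1 was lower, whereas all 10 radial glia markers were lower, with a summed level of 143 to 199 CPM against 1998 to 2399 CPM.

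Most chain genes were lower in TdTomato+ than in TdTomato− cells. Of the 51 chains, 37 were lower (72.5%) and 7 were higher (13.7%), beside 39.4% and 37.9% of all genes tested. Past both thresholds, 21 chains were lower (41.2%) and 2 were higher, beside 9.74% and 3.20% of all genes. In total 44 chains changed (86.3%), beside 77.3% of all genes, and the CPM of the groups did not overlap for 37 chains (72.5%), beside 61.6% (32.4% lower and 29.1% higher). The median log2 fold change over the chains was −1.41, against −0.01 over all genes. These shares are a description of the chains that entered the table, since *Col1a2*, *Col4a4*, *Col4a6*, *Itga1*, *Itga2* and *Itga5* were above 0.5 CPM in the TdTomato− libraries alone and *Col24a1* in the TdTomato+ libraries alone, so these genes had to differ. In RNA from sorted cells in bulk, fewer cells of a type and less RNA per cell cannot be told apart.

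**Figure D1:**
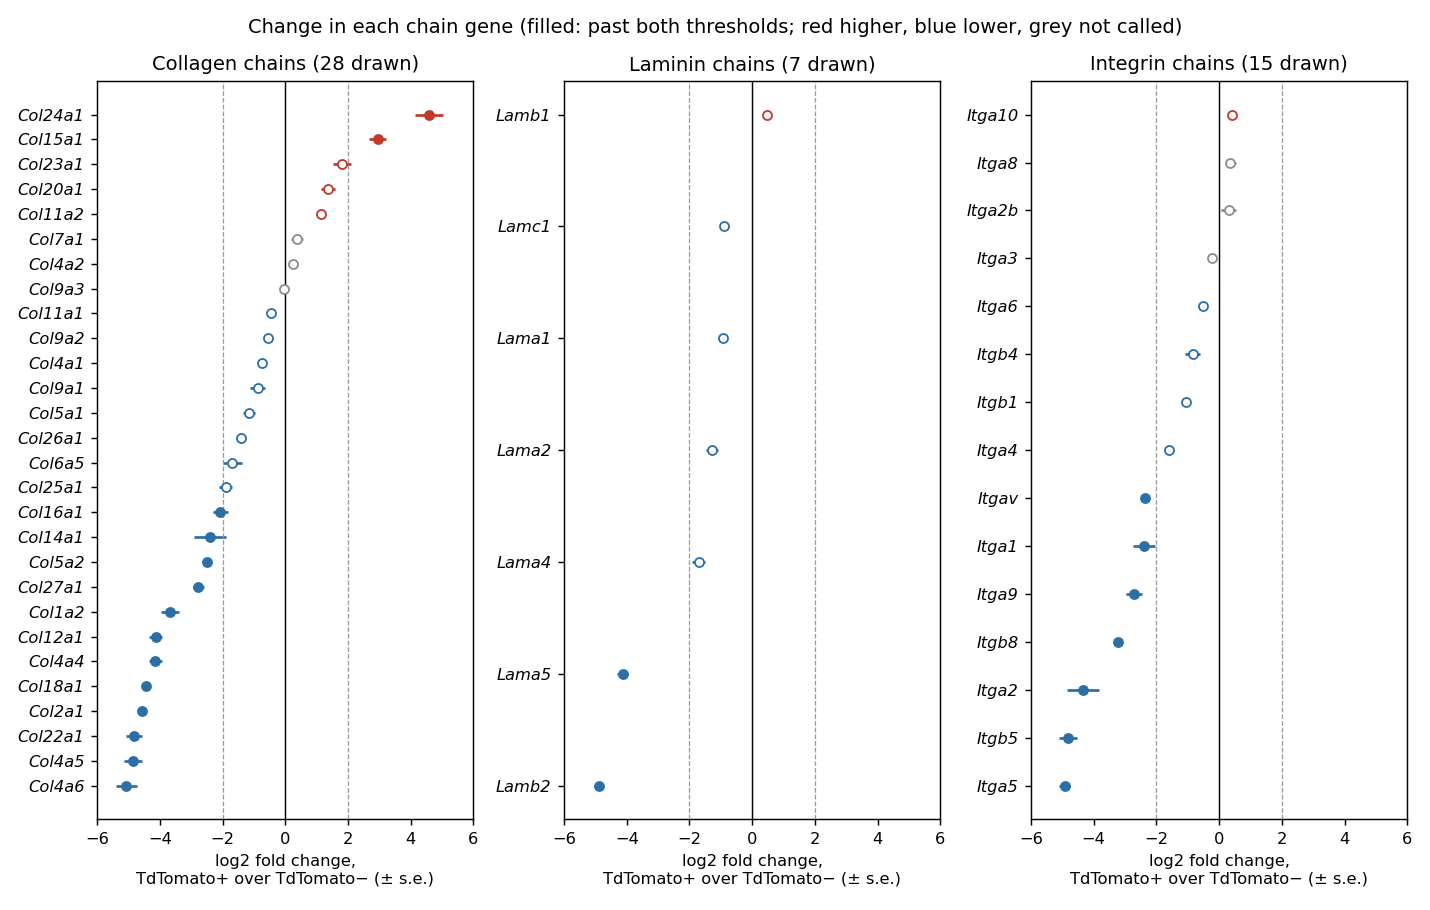
Log2 fold change of TdTomato+ over TdTomato− cells for 50 chain genes, with standard errors as bars, in 1 panel per family. Filled points passed both thresholds, red is higher, blue is lower and grey is not called. Points lie left of 0 for most genes in every family, from −5.07 (*Col4a6*) to 4.60 (*Col24a1*).

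TdTomato− cells are the remainder of the dissection, and markers of vessels, meninges and blood were therefore examined in both groups. Over all genes tested 39.4% were lower, and 9.74% were lower past both thresholds, and the counts of these lists are to be read beside those shares. Of the 12 endothelial markers, 4 were in the table and 2 of these (50%) were lower in TdTomato+ cells, with 0 past both thresholds. This share is near that of all genes. The summed level of the 4 was 12.3 to 18.8 CPM against 33.2 to 42.3 CPM, mostly *Slc2a1*, with *Pecam1* and *Esam* not called. *Cdh5*, *Cldn5*, *Tek*, *Tie1* and *Flt1* were not analysed here. Of the 9 mural cell markers, 4 were in the table and 3 were lower (5.61 to 7.48 CPM against 93.0 to 111 CPM, mostly *Notch3*, which progenitors also express). Of the 10 markers of meningeal fibroblasts, 4 were in the table and 3 were lower (2.85 to 5.34 CPM against 11.8 to 24.1 CPM), with *Dcn* not called. Among the lower genes, *Cyp1b1* did not exceed the floor in any TdTomato+ library. It was above 0.5 CPM in TdTomato− libraries alone, so it had to be lower. All 8 microglia and macrophage markers in the table were lower (0.771 to 1.81 CPM against 15.9 to 71.2 CPM), with *P2ry12*, *C1qa*, *C1qb* and *C1qc* at or under the floor in TdTomato+ cells. Of these 8, 7 (all but *Csf1r*) were above 0.5 CPM in TdTomato− libraries alone, so that their presence in the table already fixed the direction. All 6 erythroid genes in the table were lower as well (1.18 to 27.9 CPM against 76.8 to 260.1 CPM). The part of these cells in the differences described here was not tested.

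Libraries of mice 3 and 4 took positions apart from those of mice 2, 5 and 6 for several chains. TdTomato+ libraries of mice 3 and 4 were the highest for *Col24a1* and *Col23a1* and the lowest for *Col15a1*. In TdTomato− cells they were the lowest for 16 of the 51 chains (31.4%), among them *Col12a1*, *Col16a1*, *Lama2* and *Itgb5*, beside 16.2% of all genes. With mice 2, 5 and 6 alone, a comparison added after the data had been seen, 8 chains were higher and 37 lower, with 2 and 22 past both thresholds. The same held for 55 of 167 genes of the matrix and adhesion lists counted further on (32.9%), for example *Tnc* (53.6 and 41.1 CPM against 173 to 213 CPM), *Loxl1* (9.92 and 8.38 against 29.6 to 35.5), *Htra1* (5.63 and 2.41 against 18.0 to 20.9) and *Sparcl1* (10.9 and 10.6 against 20.95 to 29.8), and for all 8 microglia and macrophage markers. The labels give no date, litter or batch that separates these mice.

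Of the 28 collagen chains, 20 were lower in TdTomato+ cells, 5 were higher and 3 were not called, with 12 lower and 2 higher past both thresholds and a median log2 fold change of −1.55. The summed level was 22.2 ± 2.72 RPKM in TdTomato+ and 48.0 ± 4.41 RPKM in TdTomato− cells (mean ± SD, n = 5), and the groups did not overlap. By kind, 6 of 8 fibre-forming chains were lower and 2 higher. Of the 8 chains that sit on the surface of fibres (the FACIT group), 6 were lower, 1 was higher and 1 was not called. Of the 5 type IV chains, 4 were lower and 1 was not called.

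With all 5 mice in the fit, the chain with the greatest increase was *Col24a1* (ENSMUSG00000028197, chromosome 3, 145292472 to 145552011, plus strand), a fibre-forming collagen known from developing bone. Its level was 2.31, 12.1, 13.9, 1.70 and 2.21 CPM in the TdTomato+ libraries of mice 2 to 6 and 0.352, 0.207, 0.241, 0.238 and 0.105 CPM in their TdTomato− libraries. All TdTomato+ libraries lay above all TdTomato− libraries, and mice 3 and 4 stood well above the other mice within the TdTomato+ group. The gene was above 0.5 CPM in TdTomato+ libraries alone, so it had to be higher there. Its TdTomato− counts were 3 to 9, near the floor, which leaves the size of the fold change uncertain. The log2 fold change was 4.60 ± 0.45 (SE, adjusted p = 1.3e-05 in edgeR), and with mice 2, 5 and 6 alone it was 3.17 ± 0.38. A search of the window from 250 bases before to 50 bases after each RefSeq start site (GRCm38.p6) for TGACGTCA, the cAMP response element, found it in 1 of 41 windows of 38 chain genes (2.44%), that of *Col24a1*, and in 1.79% of all 32851 windows. The remaining 13 chains had no window in the table. The *Col24a1* window is shown because it holds this element, in capitals, which begins 7 bases before the start site (chr3:145292382-145292481, plus strand):

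Col24a1: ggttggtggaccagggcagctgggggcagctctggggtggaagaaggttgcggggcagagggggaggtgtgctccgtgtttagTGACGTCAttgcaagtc

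*Col15a1*, which encodes a non-fibrillar basement membrane collagen with an endostatin-like end, also rose past both thresholds. TdTomato+ libraries held 17.3, 2.39, 2.25, 11.96 and 11.8 CPM, and TdTomato− libraries 1.49, 0.726, 0.642, 1.23 and 1.12 CPM. Here mice 3 and 4 were the lowest of the TdTomato+ group, which is the reverse of their place for *Col24a1*, and the groups did not overlap. The log2 fold change was 2.94 ± 0.28 (adjusted p = 1.1e-05). Its relative *Col18a1*, the source of endostatin and a proteoglycan of basement membranes, went the other way. Its TdTomato+ libraries were at 0.997, 1.73, 1.99, 1.22 and 1.401 CPM and its TdTomato− libraries at 28.2, 36.6, 33.8, 34.4 and 26.0 CPM. Every TdTomato− library was above every TdTomato+ library, and the log2 fold change was −4.44 ± 0.12 (adjusted p = 4.3e-09). The pair of genes thus form the whole multiplexin group, with 1 member in each direction.

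The other collagen chains that rose did so by less than the second threshold. *Col23a1*, a transmembrane collagen, was at 5.44, 10.2, 13.4, 7.74 and 3.53 CPM in TdTomato+ and at 2.07, 1.69, 2.09, 2.26 and 2.51 CPM in TdTomato− libraries (log2 fold change 1.81 ± 0.29, adjusted p = 0.00039). *Col20a1*, a FACIT collagen, was at 2.72, 1.95, 2.34, 2.13 and 2.58 CPM against 1.25, 1.24, 0.682, 0.475 and 0.941 CPM (1.37 ± 0.23 on the log2 scale, adjusted p = 0.00047). *Col11a2*, a chain of the type XI fibrils that are best known from cartilage, was at 28.2, 16.9, 19.6, 17.8 and 20.7 CPM against 13.4, 9.61, 9.06, 6.97 and 7.84 CPM (1.15 ± 0.09, adjusted p = 4.2e-06). For each of these 3 genes all 5 mice showed the increase and the groups did not overlap. *Col11a1*, the partner chain of *Col11a2* in type XI collagen, fell by 0.46 ± 0.06 on the log2 scale (adjusted p = 7.2e-05), and its groups overlapped.

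**Figure D2:**
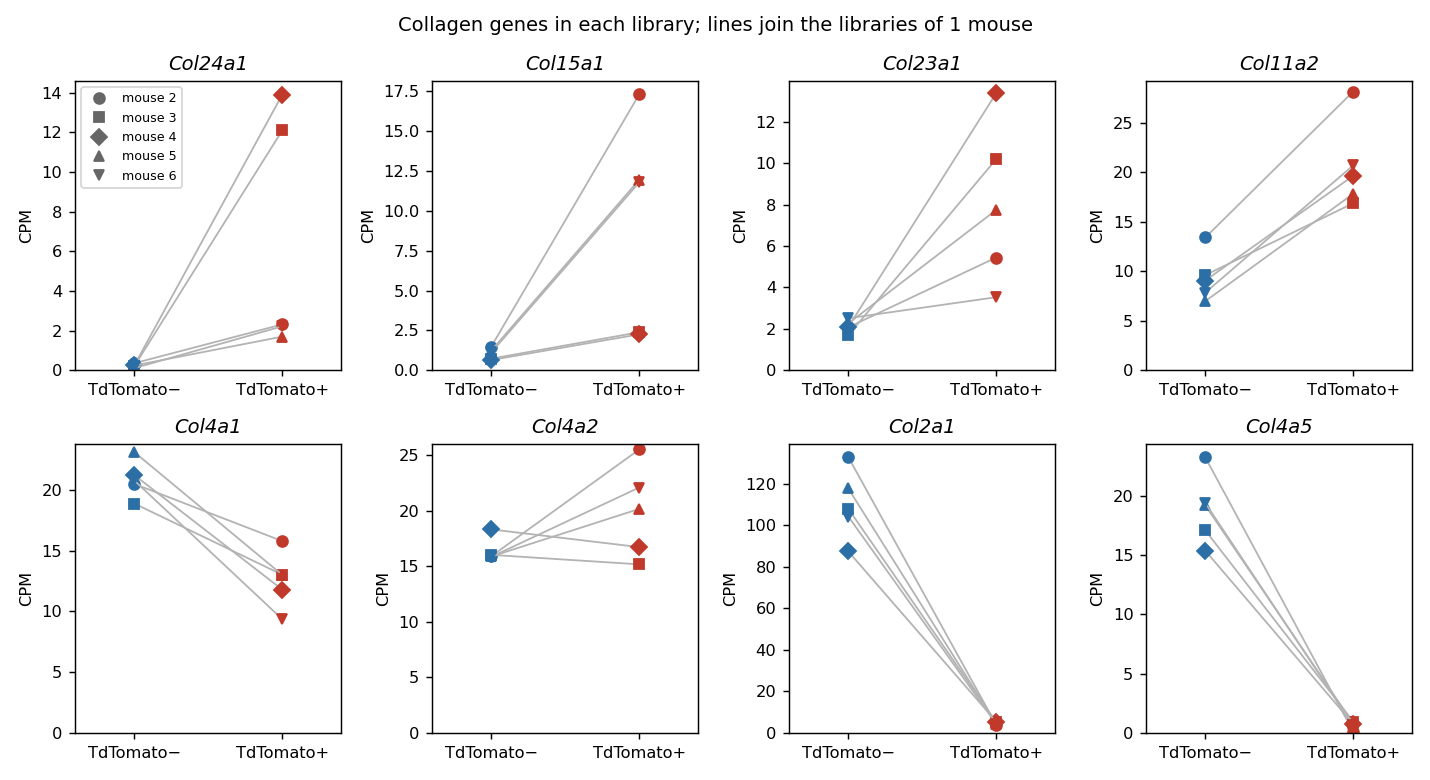
CPM of 8 collagen genes in each library, with a line joining the TdTomato− and the TdTomato+ library of each mouse and a linear axis from 0 in every panel. The lines of *Col24a1* and *Col15a1* rise in all 5 mice but by different amounts in mice 3 and 4, *Col4a1* falls in all 5, *Col4a2* rises in 3 and falls in 2, and *Col2a1* and *Col4a5* fall close to 0.

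*Col2a1*, the fibrillar collagen of cartilage, was the most abundant collagen transcript per length in TdTomato− cells. It was at 133, 108, 87.5, 118 and 104 CPM in those libraries and at 3.90, 5.12, 5.47, 4.26 and 4.34 CPM in TdTomato+ libraries, with a wide gap between the groups. The log2 fold change was −4.56 ± 0.13 (adjusted p = 6.4e-09). On the RPKM scale it made up 24.7 ± 1.68% of all collagen chains in TdTomato− cells and 2.29 ± 0.482% in TdTomato+ cells (mean ± SD, n = 5). Among the other fibre-forming chains, *Col1a2*, which encodes the second chain of type I collagen, was at 0.0453, 0.130, 0.397, 0.0435 and 0.181 CPM against 0.782, 2.00, 4.65, 1.51 and 1.36 CPM (log2 fold change −3.67 ± 0.28, adjusted p = 2.5e-06). Its TdTomato+ counts were 1 to 9, and mouse 4 was the highest library in both groups. *Col1a2* was above 0.5 CPM in TdTomato− libraries alone, so it had to be lower. *Col5a2* and *Col27a1* were also lower past both thresholds (−2.50 ± 0.10 and −2.77 ± 0.18), and *Col5a1* was lower by less (−1.16 ± 0.19). *Col5a1* and *Col5a2* encode the chains of type V collagen, which controls the width of type I fibrils.

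The type IV chains did not move together. *Col4a1* and *Col4a2* encode the chains of the most widespread type IV trimer, and they lie head to head on chromosome 8 (*Col4a1* 11198423 to 11312826, minus strand, *Col4a2* 11312805 to 11449287, plus strand), so that their annotated ends overlap by 22 bases. The promoter windows of both genes share the 78 bases from 11312777 to 11312854. This stretch is shown with the bases just before it, with a CCAAT box and a GC box, GGGCGG, in capitals (chr8:11312760-11312854, plus strand, *Col4a2* start at 11312805 and *Col4a1* start at 11312826). The GC box lies within the shared bases, whereas the CCAAT box begins before them, 32 bases before the *Col4a2* start and inside *Col4a1*:

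Col4a1 and Col4a2: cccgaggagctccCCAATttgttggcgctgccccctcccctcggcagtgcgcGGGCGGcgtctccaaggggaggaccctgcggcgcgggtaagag

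*Col4a1* was at 15.8, 13.0, 11.8, 13.0 and 9.36 CPM in TdTomato+ and 20.5, 18.9, 21.2, 23.1 and 20.8 CPM in TdTomato− libraries, with no overlap (log2 fold change −0.74 ± 0.11, adjusted p = 0.00018). *Col4a2* was at 25.5, 15.2, 16.7, 20.2 and 22.1 CPM against 15.9, 16.0, 18.3, 15.9 and 15.9 CPM (0.26 ± 0.12, adjusted p = 0.073). For *Col4a2*, mice 2, 5 and 6 were higher and mice 3 and 4 lower in TdTomato+ cells, and the groups overlapped. Without mouse 3 or without mouse 4 the gene was called higher (0.35 and 0.36), and with mice 2, 5 and 6 alone the log2 fold change was 0.50 ± 0.10. These fits leave out mice in which *Col4a2* was lower, and the last was added after the data had been seen. They therefore give no evidence of an increase. The RPKM ratio of *Col4a2* to *Col4a1* was 1.82, 1.32, 1.60, 1.75 and 2.66 in TdTomato+ cells of mice 2 to 6 and 0.876, 0.958, 0.974, 0.776 and 0.861 in TdTomato− cells, and it was higher in TdTomato+ cells of all 5 mice.

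*Col4a5* and *Col4a6*, the chains of the second type IV network, are the other head-to-head pair, on chromosome X (*Col4a5* 141475385 to 141689234, plus strand, *Col4a6* 141165403 to 141474076, minus strand), with a gap of 1308 bases. Both fell steeply. *Col4a5* was at 0.0907, 0.954, 0.751, 0.783 and 0.633 CPM in TdTomato+ and 23.2, 17.1, 15.4, 19.2 and 19.4 CPM in TdTomato− libraries (−4.85 ± 0.29, adjusted p = 4.7e-07). *Col4a6* was at 0.0453, 0.0867, 0.265, 0.174 and 0.136 CPM against 6.02, 5.08, 2.69, 5.15 and 6.13 CPM (−5.07 ± 0.34, adjusted p = 1e-06). The groups of both genes were far apart, and *Col4a4*, a chain of a further network, was lower in the same way (−4.14 ± 0.22). TdTomato+ counts were 1 to 6 for *Col4a6* and 2 to 6 for *Col4a4*, near or under the floor, so the sizes of their fold changes are uncertain. *Col4a6* and *Col4a4* were above 0.5 CPM in TdTomato− libraries alone and had to be lower. The 250 bases before the RefSeq start sites of this pair, which lie 1343 bases apart, are printed to set the pair beside *Col4a1* and *Col4a2*, each 5′ to 3′ on the strand of its gene with the same boxes in capitals (chrX:141475169-141475418, plus strand, and chrX:141474077-141474326, minus strand):

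Col4a5: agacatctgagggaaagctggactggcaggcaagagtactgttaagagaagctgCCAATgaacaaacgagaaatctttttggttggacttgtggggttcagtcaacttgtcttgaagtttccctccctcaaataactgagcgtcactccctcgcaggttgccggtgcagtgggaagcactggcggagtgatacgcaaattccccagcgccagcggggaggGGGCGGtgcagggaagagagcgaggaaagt

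Col4a6: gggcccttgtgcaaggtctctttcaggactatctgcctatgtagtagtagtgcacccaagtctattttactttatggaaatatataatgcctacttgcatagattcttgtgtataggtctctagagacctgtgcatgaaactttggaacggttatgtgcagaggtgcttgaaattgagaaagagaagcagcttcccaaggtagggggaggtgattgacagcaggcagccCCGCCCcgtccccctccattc

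The *Col4a6* window holds the GC box as its reverse complement, CCGCCC, and neither CCAAT nor its reverse complement ATTGG is in these 250 bases. Over the 41 windows of chain genes, GGGCGG was in 65.9% on either strand, beside 35.7% of all windows. CCAAT was in 31.7%, beside 37.4%, and TATAAA was in 2.44% (*Col11a2*), beside 13.6%. All windows include those of genes outside the count table, whereas the chain genes had passed its count filter, so these shares are not over like sets. A match describes the letters of a window and no more.

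*Col22a1*, a FACIT collagen of tissue junctions, was the remaining chain among those with the greatest decrease. Its TdTomato+ libraries were at 0.317, 1.39, 1.15, 0.783 and 0.994 CPM and its TdTomato− libraries at 29.6, 21.6, 20.9, 30.9 and 31.6 CPM, so that the groups were far apart. The log2 fold change was −4.83 ± 0.25 (adjusted p = 1.8e-07). Of the other FACIT chains, *Col12a1* (−4.14 ± 0.21), *Col14a1* (−2.40 ± 0.50) and *Col16a1* (−2.07 ± 0.25) were lower past both thresholds, and *Col9a1* and *Col9a2*, chains of type IX collagen, were lower by less (−0.88 ± 0.24 and −0.55 ± 0.15). With mice 2, 5 and 6 alone the log2 fold change was −3.74 for *Col14a1*, −5.45 for *Col22a1* and −2.41 for *Col16a1*, and *Col9a1* was no longer called (−0.69, adjusted p = 0.095). Without mouse 6 *Col14a1* (−1.96) and *Col16a1* fell short of the second threshold, and *Col16a1* did so without mouse 5 as well (−1.86).

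*Col9a3*, the third chain of type IX collagen, did not pass the test. It was at 17.05, 13.2, 15.0, 14.2 and 15.9 CPM in TdTomato+ and 18.3, 15.3, 13.3, 13.7 and 16.7 CPM in TdTomato− libraries (log2 fold change −0.04 ± 0.07, adjusted p = 0.68). The groups overlapped almost completely, and 6.07% of the exon length of the gene overlaps a gene on the other strand. *Col9a3* made up 17.7 ± 1.16% of collagen RPKM in TdTomato+ and 8.36 ± 0.757% in TdTomato− cells. In TdTomato+ cells it was followed by *Col4a2* (13.5 ± 1.98%) and *Col11a2* (13.4 ± 1.33%), whose means of 3.01 ± 0.627 and 3.00 ± 0.649 RPKM did not differ beyond their spread. In TdTomato− cells *Col2a1* (11.9 ± 1.82 RPKM) was followed by *Col18a1* (4.53 ± 0.639 RPKM) and *Col9a3* (4.01 ± 0.543 RPKM), and the latter pair overlapped in their spread.

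Among the remaining collagens, *Col25a1*, a transmembrane collagen of neurons, fell by 1.90 ± 0.21 on the log2 scale, *Col26a1* by 1.41 ± 0.15 and *Col6a5* by 1.69 ± 0.31. With mice 2, 5 and 6 alone *Col6a5* fell by 2.28 ± 0.42, past the second threshold. *Col7a1*, the anchoring fibril collagen of skin, was at 1.31 to 3.99 CPM against 1.35 to 2.58 CPM and was not called (0.38 ± 0.18, adjusted p = 0.089). *Col4a3bp* encodes a ceramide transfer protein and not a collagen, and it was at 30.7 to 37.3 CPM against 27.5 to 34.3 CPM (0.12 ± 0.07, adjusted p = 0.11).

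Of the 8 laminin chains, 6 were lower in TdTomato+ cells and 1 was higher, with 2 lower past both thresholds and none higher, and a median log2 fold change of −1.11. All 4 alpha chains were lower, the beta chains went in opposite directions, and the gamma chain *Lamc1* was lower. The summed level was 9.31 ± 0.453 RPKM in TdTomato+ and 22.1 ± 1.36 RPKM in TdTomato− cells (n = 5), with no overlap.

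The beta chains showed the clearest contrast. *Lamb1* (chromosome 12, 31265234 to 31329644, plus strand), the beta chain of early embryonic basement membranes, was at 41.0, 37.1, 35.6, 37.5 and 43.1 CPM in TdTomato+ and 24.0, 29.5, 27.8, 26.7 and 33.5 CPM in TdTomato− libraries. It was the one laminin chain that rose (log2 fold change 0.46 ± 0.07, adjusted p = 0.00026), and the groups did not overlap. *Lamb2* (chromosome 9, 108479736 to 108490530, plus strand), the beta chain of later basement membranes and of the neuromuscular junction, was at 0.861, 2.00, 1.46, 2.04 and 1.45 CPM against 48.5, 47.2, 41.8, 47.9 and 47.5 CPM. Its TdTomato− libraries lay within a narrow band far above the TdTomato+ libraries (−4.90 ± 0.14, adjusted p = 5.9e-09). The RPKM ratio of *Lamb2* to *Lamb1* was 0.0343, 0.0877, 0.0667, 0.0888 and 0.0548 in TdTomato+ and 3.29, 2.61, 2.45, 2.92 and 2.31 in TdTomato− cells of mice 2 to 6. *Lamb2* was therefore the most abundant laminin transcript per length in TdTomato− cells (34.7 ± 0.582% of laminin RPKM) and the fourth in TdTomato+ cells (2.75 ± 0.845%), where *Lamb1* had the highest mean (42.1 ± 2.73%) but *Lamc1* was the higher in mice 3, 4 and 5.

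**Figure D3:**
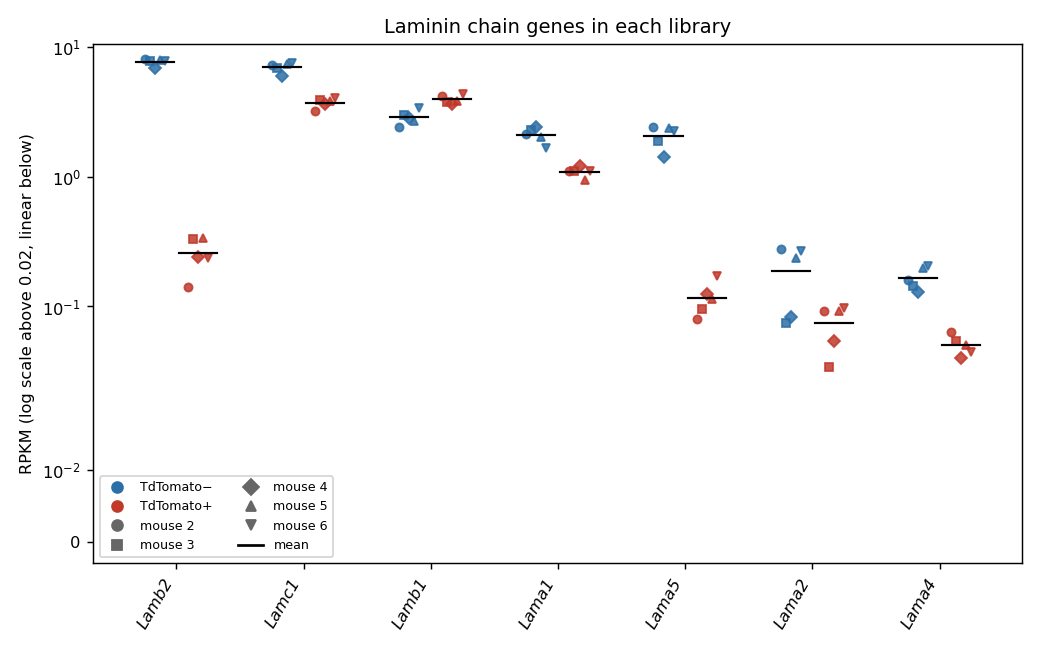
RPKM of 7 laminin chains in each library, on an axis that is logarithmic above 0.02 and linear below, with a bar at each group mean. TdTomato− libraries (blue) lie above TdTomato+ libraries (red) for *Lamb2* (29.8-fold) and *Lama5* (17.5-fold), and below them for *Lamb1*.

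Among the alpha chains, which carry the sites that receptors bind, *Lama5* had the greatest decrease. It was at 0.907, 1.08, 1.41, 1.30 and 1.94 CPM in TdTomato+ and 27.5, 21.3, 16.2, 26.8 and 25.6 CPM in TdTomato− libraries (−4.13 ± 0.17, adjusted p = 4.5e-08). *Lama1*, the alpha chain of the first embryonic basement membranes, was at 10.7, 10.8, 11.6, 9.09 and 10.7 CPM against 20.6, 22.2, 23.4, 19.4 and 16.0 CPM (−0.93 ± 0.09, adjusted p = 8.7e-06). Both had groups that did not overlap, and the RPKM ratio of *Lama5* to *Lama1* was 0.0717, 0.0857, 0.104, 0.122 and 0.155 in TdTomato+ and 1.14, 0.817, 0.591, 1.18 and 1.36 in TdTomato− cells. *Lama1* therefore held most of the summed alpha chain level of 1.33 ± 0.0911 RPKM in TdTomato+ cells, with a mean of 1.09 ± 0.0934 RPKM.

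*Lama4*, the alpha chain of vessels, was at 0.771, 0.651, 0.486, 0.609 and 0.542 CPM against 1.92, 1.73, 1.56, 2.38 and 2.47 CPM (−1.70 ± 0.20, adjusted p = 5e-05). *Lama2*, the alpha chain of muscle and of glial basement membranes, was at 1.496, 0.564, 0.883, 1.52 and 1.58 CPM against 4.53, 1.21, 1.36, 3.88 and 4.39 CPM (−1.28 ± 0.18, adjusted p = 0.00016). For *Lama2* the TdTomato− libraries of mice 3 and 4 fell within the range of the TdTomato+ group, so the groups overlapped, while each mouse on its own showed the decrease. The *Lama4* groups did not overlap.

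*Lamc1*, the gamma chain of most laminin trimers, was at 26.6, 32.0, 29.8, 31.6 and 33.2 CPM in TdTomato+ and 59.3, 56.4, 49.0, 60.7 and 61.7 CPM in TdTomato− libraries (−0.90 ± 0.07, adjusted p = 1.6e-06). Its mean per length was the second of the laminins in both groups (3.70 ± 0.310 and 6.94 ± 0.618 RPKM). In TdTomato+ cells *Lamb1* (3.92 ± 0.309 RPKM) and *Lamc1* overlapped in their spread, and the RPKM ratio of *Lamc1* to *Lamb1* was 0.778 to 1.03, against 2.11 to 2.96 in TdTomato− cells.

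Of the 15 integrin chains, 11 were lower in TdTomato+ cells, 1 was higher and 3 were not called, with 7 lower past both thresholds and none higher, and a median log2 fold change of −1.60. All 4 beta chains were lower. The summed level was 25.8 ± 0.952 RPKM in TdTomato+ and 56.5 ± 1.18 RPKM in TdTomato− cells (n = 5), with no overlap.

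The common beta chain *Itgb1* (chromosome 8, 128685654 to 128733200, plus strand), which pairs with the laminin-binding and collagen-binding alpha chains, was the most abundant integrin transcript per length in both groups. It was at 62.0, 62.1, 61.5, 68.5 and 71.6 CPM in TdTomato+ and 133, 137, 135, 137 and 141 CPM in TdTomato− libraries. The log2 fold change was −1.07 ± 0.04 (adjusted p = 4.1e-08), and the libraries of each group lay close together. *Itgb1* made up 61.8 ± 2.62% of integrin RPKM in TdTomato+ and 59.2 ± 1.63% in TdTomato− cells, so its share of the family moved by less than its level.

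*Itgb8* and *Itgb5*, beta chains that pair with *Itgav* as *Itgb1* also can, had greater log2 decreases than *Itgb1*. *Itgb8*, whose receptor releases active TGF-beta from its latent form, was at 6.03, 4.51, 3.66, 7.26 and 4.43 CPM in TdTomato+ and 52.4, 50.9, 46.1, 45.9 and 42.2 CPM in TdTomato− libraries (−3.21 ± 0.13, adjusted p = 3.5e-08). *Itgb5*, a receptor chain for vitronectin, was at 0.136, 0.347, 0.221, 0.261 and 0.723 CPM against 12.5, 5.63, 6.58, 11.9 and 12.02 CPM (−4.82 ± 0.28, adjusted p = 3.6e-07). *Itgav* itself, the alpha chain of both, was at 3.90, 4.51, 4.55, 4.61 and 4.16 CPM against 23.9, 22.2, 21.6, 21.4 and 23.5 CPM (−2.37 ± 0.09, adjusted p = 2.1e-08). None of these groups overlapped, and 5.90% of the *Itgav* exon length overlaps a gene on the other strand. *Itgb4*, the partner of *Itga6* in hemidesmosomes, was at 1.09, 0.651, 0.839, 1.26 and 0.588 CPM against 2.07, 1.11, 1.16, 1.55 and 2.06 CPM (−0.84 ± 0.24, adjusted p = 0.011), with overlapping groups and a decrease in all 5 mice.

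**Figure D4:**
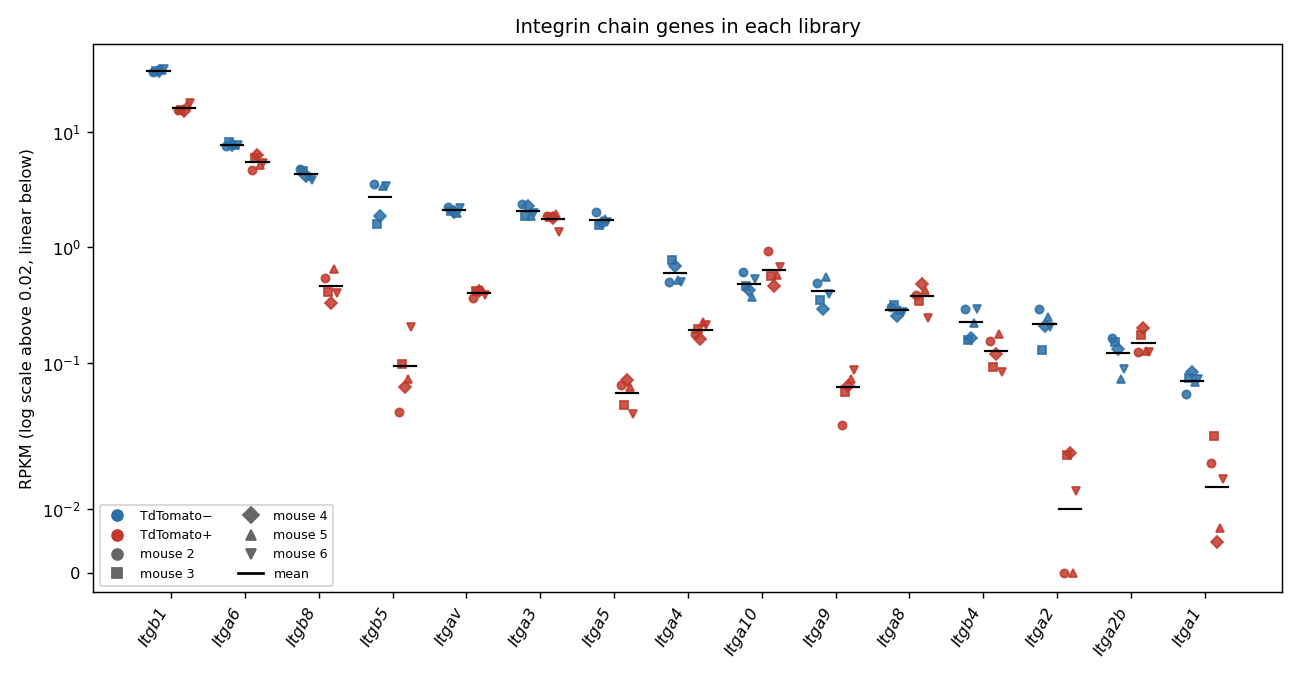
RPKM of the 15 integrin chains in each library, on an axis that is logarithmic above 0.02 and linear below, with a bar at each group mean. *Itgb1* and *Itga6* are the highest in both groups, *Itga3* and *Itga10* overlap between groups, and the groups of *Itgb5* (28.3-fold), *Itga5* (30.5-fold) and *Itga2* (at least 11.7-fold) are far apart.

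Of the laminin-binding alpha chains in the table, *Itga6* was lower in TdTomato+ cells and *Itga3* was not called. *Itga6* was at 42.2, 53.0, 56.8, 46.7 and 48.2 CPM in TdTomato+ and 68.0, 73.1, 68.8, 69.0 and 69.1 CPM in TdTomato− libraries, with no overlap (−0.50 ± 0.06, adjusted p = 5.7e-05). *Itga3*, whose receptor is known from neuronal migration, was at 10.6, 10.4, 10.3, 11.2 and 7.77 CPM against 13.4, 10.6, 13.1, 10.7 and 11.2 CPM and was not called (−0.24 ± 0.10, adjusted p = 0.059). The *Itga3* groups overlapped, with 4 mice lower and 1 higher. After *Itgb1*, *Itga6* and *Itga3* were the most abundant integrin transcripts per length in TdTomato+ cells, at 5.47 ± 0.630 and 1.76 ± 0.231 RPKM. The RPKM ratio of *Itgav* to *Itga6* was 0.0777, 0.0715, 0.0672, 0.0829 and 0.0725 in TdTomato+ and 0.295, 0.255, 0.264, 0.260 and 0.285 in TdTomato− cells of mice 2 to 6, whereas that of *Itga3* to *Itga6* was 0.255 to 0.398 and 0.230 to 0.313, with overlap.

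*Itga5*, the main fibronectin receptor chain, was at 0.317, 0.217, 0.353, 0.304 and 0.181 CPM in TdTomato+ and 10.01, 7.74, 8.02, 8.72 and 8.15 CPM in TdTomato− libraries (−4.93 ± 0.17, adjusted p = 1.4e-08). *Itga2*, a collagen receptor chain, was at 0, 0.130, 0.132, 0 and 0.0904 CPM against 2.11, 0.933, 1.48, 1.78 and 1.46 CPM. Its TdTomato+ counts of 0 to 3 were all at or under the floor, so its level was at least 11.7-fold lower in TdTomato+ cells with the floor taken per library (adjusted p = 4.3e-05). *Itga1*, a second collagen receptor chain that lies 20995 bases from *Itga2* on chromosome 13, was lower past both thresholds (−2.40 ± 0.34), as was *Itga9* (−2.72 ± 0.26), while *Itga4* was lower by less (−1.60 ± 0.16). Of these, *Itga1*, *Itga2* and *Itga5* were above 0.5 CPM in TdTomato− libraries alone, so they had to be lower.

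The single integrin chain called higher was *Itga10*, a collagen receptor chain of cartilage. It was at 4.81, 2.95, 2.43, 3.00 and 3.48 CPM in TdTomato+ and 3.17, 2.42, 2.21, 1.94 and 2.75 CPM in TdTomato− libraries (0.40 ± 0.14, adjusted p = 0.024), with overlapping groups and an increase in all 5 mice. The call was lost without the mouse block (adjusted p = 0.079), with library totals alone, in DESeq2, and without mouse 2 or mouse 5. In addition 33.5% of its exon length overlaps another gene of the same strand, and reads in that part cannot be told apart from that gene's. *Itga8* (0.36 ± 0.18, adjusted p = 0.097) and *Itga2b*, the platelet chain (0.31 ± 0.24, adjusted p = 0.26), were not called.

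The other matches of the rule encode proteins that are no integrin chain. *Itgb1bp2*, also called melusin, was at 2.43 to 3.81 CPM in TdTomato+ and 0.832 to 2.70 CPM in TdTomato− libraries and was called higher (1.398 ± 0.23, adjusted p = 0.00041). *Itgb3bp*, a centromere protein, was lower (−0.74 ± 0.12, adjusted p = 0.00039). *Itgb1bp1*, which binds the tail of the beta chain, was at 14.2 ± 0.439 and 14.2 ± 0.660 CPM (adjusted p = 0.99), and *Itgbl1* was not called either (0.35 ± 0.33, adjusted p = 0.36).

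**Figure D5:**
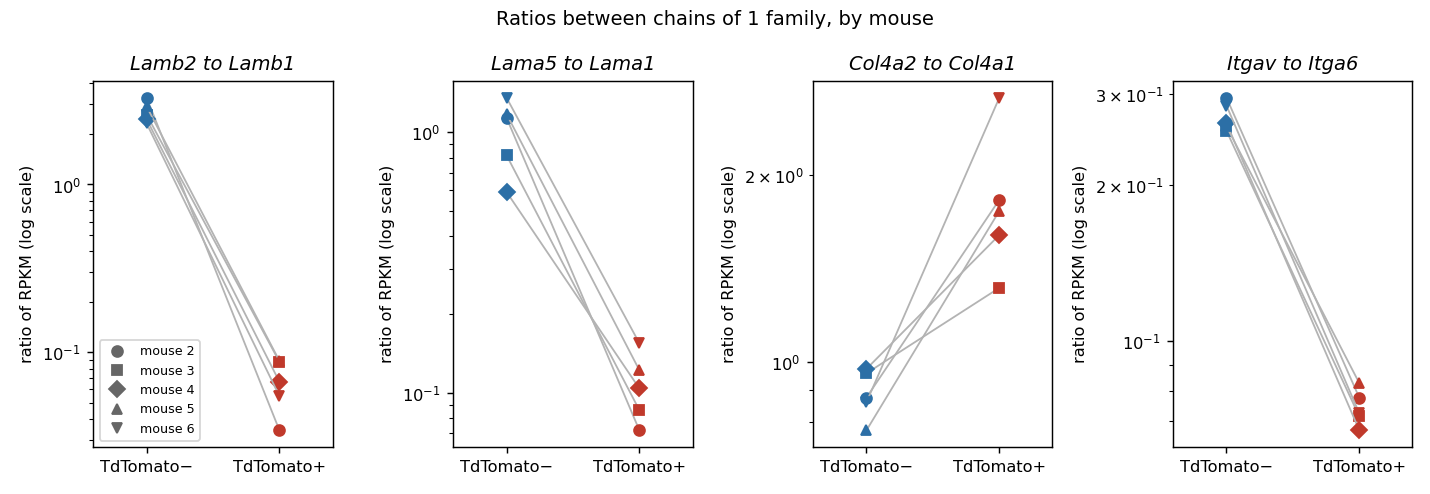
Ratio of RPKM between 4 pairs of chains in each library, on a log axis, with a line joining the libraries of each mouse. In all 5 mice the ratios of *Lamb2* to *Lamb1*, *Lama5* to *Lama1* and *Itgav* to *Itga6* are lower in TdTomato+ cells, and that of *Col4a2* to *Col4a1* is higher.

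The ratios between chains of a family do not depend on how libraries are scaled. The mean log2 difference, TdTomato+ minus TdTomato−, was −5.42 ± 0.68 for *Lamb2* to *Lamb1*, −3.23 ± 0.53 for *Lama5* to *Lama1*, 1.01 ± 0.45 for *Col4a2* to *Col4a1*, −1.87 ± 0.14 for *Itgav* to *Itga6* and −1.37 ± 0.34 for *Lamc1* to *Lamb1* (SD, n = 5 mice). Each of these 5 had the same direction in all 5 mice, and an exact two-sided sign-flip permutation test over mice gave p = 0.0625, the smallest that 5 pairs allow (0.075 adjusted over 6 ratios). *Itga3* to *Itga6* differed by 0.26 ± 0.30 (exact permutation p = 0.25). With 5 mice this permutation test cannot reach 0.05 for a single ratio, which is a limit of the test chosen. The ratios are built from the same values as the fold changes given above, so the test adds no separate evidence.

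Genes that work with these chains were counted from lists written from general knowledge. Of 30 basement membrane and matrix genes in the table, 21 were lower in TdTomato+ cells (70.0%) and 5 higher (16.7%), with 12 (40.0%) and 2 (6.67%) past both thresholds and a median log2 fold change of −1.30. Over all genes tested these shares were 39.4% and 37.9%, with 9.74% and 3.20% past both thresholds, and the counts of the lists that follow are to be read beside them. Some genes of these lists were above 0.5 CPM in TdTomato− libraries alone and had to be lower, namely 3 of the basement membrane and matrix genes, 3 of those for collagen synthesis, 2 integrin partners, 3 other matrix receptors and 2 proteases or inhibitors, among them *Nid2*, *Fkbp10*, *Apbb1ip*, *Ddr2*, *Sdc4*, *Cd44* and *Adamts9*. The greatest decreases were those of *Tnc*, the matrix protein tenascin C, at 0.795 to 8.32 CPM against 41.1 to 213 CPM (−4.97 ± 0.20), *Sparc*, a collagen-binding protein (−4.56 ± 0.28), *Nid2*, a linker of laminin to type IV collagen (−4.18 ± 0.26), and *Frem2* (−3.45 ± 0.16). *Nid1*, the other nidogen linker, was lower as well (−2.20 ± 0.29), as were *Fn1*, fibronectin, at 55.0 to 73.4 CPM against 141 to 175 CPM (−1.28 ± 0.07), and *Reln*, reelin, at 122 to 143 CPM against 181 to 321 CPM (−0.81 ± 0.12). The adjusted p of these 7 genes was at most 0.00024. The genes higher past both thresholds, which fall outside the rule for named genes and were chosen after their values were seen, were *Sparcl1* (2.69 ± 0.13), a relative of *Sparc*, and *Tnr*, the neural tenascin R (2.58 ± 0.15).

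Of 33 genes for collagen folding, modification and processing, 18 were lower (54.5%) and 12 higher (36.4%), the latter a share close to the 37.9% of all genes, with 10 (30.3%) and 3 (9.09%) past both thresholds and a median of −0.49. *Serpinh1*, the collagen chaperone HSP47, was at 3.04 to 6.49 CPM in TdTomato+ and 94.0 to 104 CPM in TdTomato− libraries (−4.36 ± 0.13, adjusted p = 7.8e-09). *Fkbp10*, a second chaperone, *Loxl1*, a crosslinking enzyme, and *Plod1*, a lysyl hydroxylase, were lower too (−4.74 ± 0.42, −4.70 ± 0.13 and −3.75 ± 0.23). *Adamts3*, a procollagen peptidase that also cleaves reelin, rose from 36.4 to 46.1 CPM in TdTomato− to 319 to 346 CPM in TdTomato+ libraries (3.01 ± 0.05, adjusted p = 1.1e-09) and is likewise outside the rule.

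Of 43 genes for the intracellular partners of integrins, 25 were lower (58.1%) and 8 higher (18.6%), with 7 lower (16.3%) and none higher past both thresholds, and a median of −0.25. This list also holds *Itgb1bp1* and *Itgb3bp*, which match the symbol rule too, and the centromere protein *Itgb3bp* is counted among its lower genes. *Dock1*, a Rac activator (−4.28 ± 0.12), *Kank2* (−4.14 ± 0.17) and *Tns3*, a tensin (−4.04 ± 0.07), had large decreases, and *Apbb1ip*, which recruits talin, had 0 to 3 counts in TdTomato+ libraries and 0.587 to 1.80 CPM in TdTomato− libraries. Of 35 other matrix receptors and their enzymes, 17 were lower (48.6%) and 9 higher (25.7%), with 5 lower (14.3%) and none higher past both thresholds, and a median of −0.13. These were led by *Ddr2*, a collagen receptor kinase (−5.43 ± 0.30), *Sdc4*, a syndecan (−4.93 ± 0.25), *Cd44*, the hyaluronan receptor (−3.07 ± 0.48), and *Utrn*, utrophin (−2.48 ± 0.13). *Adgrg1*, the receptor for collagen III in the cortex, was at 154 to 256 CPM against 509.7 to 543 CPM (−1.46 ± 0.12, adjusted p = 3.3e-06), and *Dag1*, dystroglycan, at 135 to 142 CPM against 167 to 189.8 CPM (−0.35 ± 0.04, adjusted p = 3.3e-05).

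Of 26 matrix proteases and inhibitors, 15 were lower (57.7%) and 7 higher (26.9%), with a median of −0.64. Past both thresholds 3 were lower (11.5%) and 1 was higher (3.85%), which is close to the 9.74% and 3.20% of all genes. The 4 genes past both were *Htra1*, a serine protease (−4.55 ± 0.28), *Adamts9* (−4.05 ± 0.16), *Adamts5* (−2.64 ± 0.23) and, in the other direction, *Adamts20* (2.03 ± 0.12), the last 3 being metalloproteases that cleave proteoglycans. For *Htra1* the TdTomato− libraries ranged from 2.41 to 20.9 CPM, with those of mice 3 and 4 the lowest, while the TdTomato+ libraries stayed within 0.309 to 0.768 CPM. Lists that cover other neural cells in the same libraries moved with the chains, since all 5 intermediate progenitor markers, all 8 inhibitory neuron markers and all 4 oligodendrocyte precursor markers in the table were lower (medians −4.00, −4.30 and −4.16), as was *Clic6*, the 1 choroid plexus marker of 5 in the table (−2.03). Of these, *Neurog1* and *Cspg4* were above 0.5 CPM in TdTomato− libraries alone and had to be lower. The part of these cells in the difference of the chains was not tested.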

How the data were processed

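The authors aligned trimmed reads with STAR 2.4.2a to GRCm38, kept unique alignments and deposited unnormalized gene counts for the 10 libraries. The submitters' processing notes also name edgeR 3.28.0. The annotation release and the strand setting of the counting are not given in the sources used here, so overlapping and antisense genes are uncertain. Every deposited gene exceeded 0.5 CPM in at least 5 libraries, and genes with less were not analysed here. Gene symbols, positions and merged exon lengths came from GENCODE release M21 (GRCm38), which matched 14271 of 14300 identifiers. Promoter windows came from RefSeq (GRCm38.p6).

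Counts were fitted with edgeR 4.0.16 in R 4.3.3 (filterByExpr, which kept every gene, TMM, quasi-likelihood test, mouse as a block, prior count 0.125), with Benjamini-Hochberg adjustment over 14300 genes. Both call thresholds (adjusted p of 0.05, absolute log2 fold change of 2) are those of the study. Mouse numbers paired the libraries, since deviations from the group means correlated at 0.186 to 0.316 within a mouse and at −0.312 to 0.212 between mice. Libraries of 1 group differed by 4.53 to 32.8 times the sampling variance, so none was a mere resampling of the reads of another. This comparison cannot tell separate animals from separate preparations of the same cells. The study speaks of mice sorted, without saying whether a number is a single embryo or a pooled litter, so p-values measure the spread between these numbered libraries. The script was tested on simulated counts.

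Per-library values are given for the 4 called chains of each family that rose most and the 4 that fell most, the 3 with the highest RPKM in each group, and a fixed list of chains. The values of 1 chain, which is included in the counts and sums, are not reported here. Partner genes past both thresholds are named, up to 4 per list, with 6 named always. The members, gene lists and motifs were chosen with earlier results of these data known. Alternatives were RLE, upper-quartile or no normalization, DESeq2 1.42.0, no count filter or one of 1 CPM, no block, TREAT, robust estimation, a prior count of 2, transcript length, each mouse left out, and, added after the data had been seen, mice 3 and 4 left out together.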

Additional observations from a re-analysis of the deposited data

Results flagged for a closer look

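The lowest or highest library of a group was set apart from the other 4 by more than Dixon's critical value of 0.71 (the gap to the nearest library over the range of log2 CPM) in 8 of 112 groups of members, where chance alone would give about 5.6. For *Col4a2*, TdTomato− mouse 4 was the highest (ratio 0.922, 4.20 log2 CPM against 3.99 to 4.01). For *Col4a5*, TdTomato+ mouse 2 was the lowest (0.793, with a count of 2 against 14 to 22). For *Col4a6*, TdTomato− mouse 4 was the lowest (0.770, count 67 against 130 to 176). For *Lamb2*, TdTomato− mouse 4 was the lowest (0.811, count 1043 against 1209 to 1365). For *Itga3*, TdTomato+ mouse 6 was the lowest (0.772, count 172 against 233 to 257). For *Itga6*, TdTomato− mouse 3 was the highest (0.767, 6.19 log2 CPM against 6.09 to 6.11). For *Itgb1bp1*, TdTomato− mouse 5 was the highest (0.799, 3.95 log2 CPM against 3.79 to 3.82). For *Itgb1bp2*, TdTomato− mouse 2 was the highest (0.876, count 69 against 21 to 28).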

How the results depend on the processing

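Every called chain other than *Itga10* and *Col9a1* kept its direction and its call at an adjusted p of 0.05 under each normalization, filter, tool and left-out mouse in which it could be fitted. *Itga10* (0.40) lost its call under library totals alone (0.22), in DESeq2 (0.41), without the replicate block (0.41) and without mouse 2 (0.35) or mouse 5 (0.35), so that the number of integrin chains called higher, 1, became 0 under each of these. Leaving out each mouse gave 0 to 2 integrin chains higher. *Col9a1* lost its call in DESeq2 (−0.89) and with mice 2, 5 and 6 alone. Without the block on mouse, which pairs the libraries, collagen chains were 5 higher and 20 lower, laminin chains 1 and 6, and no other call of a member changed. TREAT against a log2 fold change of 2 left 18 of 21 chains lower (not *Col14a1*, *Col16a1* or *Itga1*), beside 1077 of 1393 genes of the whole table lower and 273 of 457 higher. A prior count of 2 left 20 chains lower (not *Col16a1*, −1.99). Leaving out each mouse gave 19 to 22 lower and 2 to 3 higher (without mouse 6, *Col23a1* at 2.13). Library totals alone moved the median of all genes to −0.18 and the share of calls that are higher from 49.1% to 36.6%, with 6 chains higher and 39 lower, among them *Col9a3* (−0.21) and *Itga3* (−0.41). *Itga3* was also called with upper-quartile scaling (−0.26) and without mouse 5 (−0.31), and *Itga8* without mouse 6 (0.49).

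Signs turned for values near 0 that were not called, namely *Col4a3bp* under library totals (−0.053), and *Itgb1bp1* with upper-quartile scaling (−0.018), library totals (−0.18) and a filter of 1 CPM (−0.0023). With each mouse left out, values ranged from −0.086 to 0.011 for *Col9a3*, from −0.017 to 0.020 for *Itgb1bp1* and from −0.027 to 0.53 for *Itgbl1*. With the length of the longest transcript in place of merged exons, the summed levels were 27.2 and 67.0 RPKM for collagens, 12.6 and 25.8 for laminins and 33.9 and 71.1 for integrins (TdTomato+ and TdTomato−). At this depth a chain such as *Itga2* at 0 to 3 counts gives a bound and no fold change. The cause of these dependences was not tested.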
